A study of Homo sapiens with 8 samples.

Results

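The genes described here handle fatty acids and lipid droplets in endothelial cells: CD36, LPL, LIPG, FABP4, FABP5, PLIN2, CIDEA, PNPLA2, G0S2 and PPARG. They were taken by name from the deposited table, 10 genes of the 30386 it lists, and all 10 had enough counts to enter the fit across 15330 genes. The 10 names were chosen from measured iREC against iEC values, so their differences between the groups are given as a description without a test. Messenger RNA had been sequenced from a human induced pluripotent line, named WTC-TJP1 in the labels. The 4 iEC samples are endothelial cells from this line. The 4 iREC samples are, per the series title, retinal endothelial cells from the same line. The series describes them as a matched differentiation, and all samples were taken at passage 1. Sample records give both groups the same cell type label and no treatment, and all 8 samples come from 1 line. Samples carry the letters C, D, E and F in each group and are named here by group and letter. No label says that samples of a group are separate cultures, so the spread between them, and every p-value, may be technical.

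Circulating triglyceride is split at the vessel wall by lipoprotein lipase, which GPIHBP1 holds on the surface of capillary endothelium. CD36 helps the released fatty acids enter the cell, and small binding proteins of the FABP family carry them through the cytosol. They are then burned, passed on to the tissue or stored as triglyceride in lipid droplets, which are coated by perilipins and emptied by adipose triglyceride lipase, the product of PNPLA2. PPARG is a nuclear receptor that binds fatty acids, and CD36, FABP4, LPL and CIDEA are among its known targets in fat cells.

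The iEC libraries held 14877502 to 16971865 counts and the iREC libraries 13739364 to 15987839, and a floor of 3 counts equalled 0.177 to 0.218 CPM, the count after scaling each library to a common total. All 10 endothelial markers examined were expressed, with summed levels of 6810 to 8660 CPM in iEC and 4086 to 9165 CPM in iREC. By edgeR 4 of them were called lower in iREC and 2 higher: PECAM1 stood at 1927 to 2605 CPM in iEC and 493 to 855 CPM in iREC, and EMCN at 1.58 to 6.05 CPM and 209.5 to 575 CPM. The library iREC F stood apart. Its endothelial sum was the lowest of all 8 samples, at 4086 CPM. Its mural and mesenchymal marker sum was 4193 CPM, against 548 to 1155 CPM in the other iREC samples and 78.7 to 354 CPM in iEC, so this sum was higher in every iREC sample. TAGLN alone gave 732 of 884 CPM in iREC C and 318 of 548 CPM in iREC E. In iREC C, PDGFRB, ACTA2, COL1A1, COL3A1 and LUM lay below iEC F. RGS5 lay within the iEC range there, and TAGLN, CNN1, PDGFRA and DCN lay above every iEC sample. Of the 8 tested mural and mesenchymal markers 3 were called higher. The epithelial sum of iREC F was 4924 CPM, against 302 to 1117 CPM in the other iREC samples and 391 to 1174 CPM in iEC. Its pluripotent marker sum was 505 CPM, against 53.3 to 173 CPM in the other iREC samples and 39.0 to 91.0 CPM in iEC. Nearly all of it was LIN28A, at 482 CPM. DPPA4 was at 22.5 CPM there and 30.3 to 57.9 CPM in iEC, and NANOG and TDGF1 were at 0 counts. These are bulk samples, in which fewer cells of a type and less RNA per cell cannot be told apart. Member values are therefore also given without iREC F.

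In the fit across all genes by edgeR, 25.0% of the 15330 tested genes passed an adjusted p of 0.05, 13.2% as higher and 11.7% as lower in iREC, and the samples of the groups did not overlap in 29.1%. Of the 10 members, 3 were past that threshold as higher in iREC (FABP4, CD36 and PPARG) and 3 as lower (G0S2, CIDEA and FABP5). LPL, PLIN2, PNPLA2 and LIPG were not past it. The same 6 genes were those whose groups did not overlap. Because the names were chosen on this contrast, nothing is read from these counts. The members' median log2 fold change was 0.03, and that of all tested genes 0.02. On their iEC samples alone, FABP4 and CD36 would not have passed the filter on low counts. The same holds for CIDEA and G0S2 on their iREC samples alone.

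**Figure D1:**
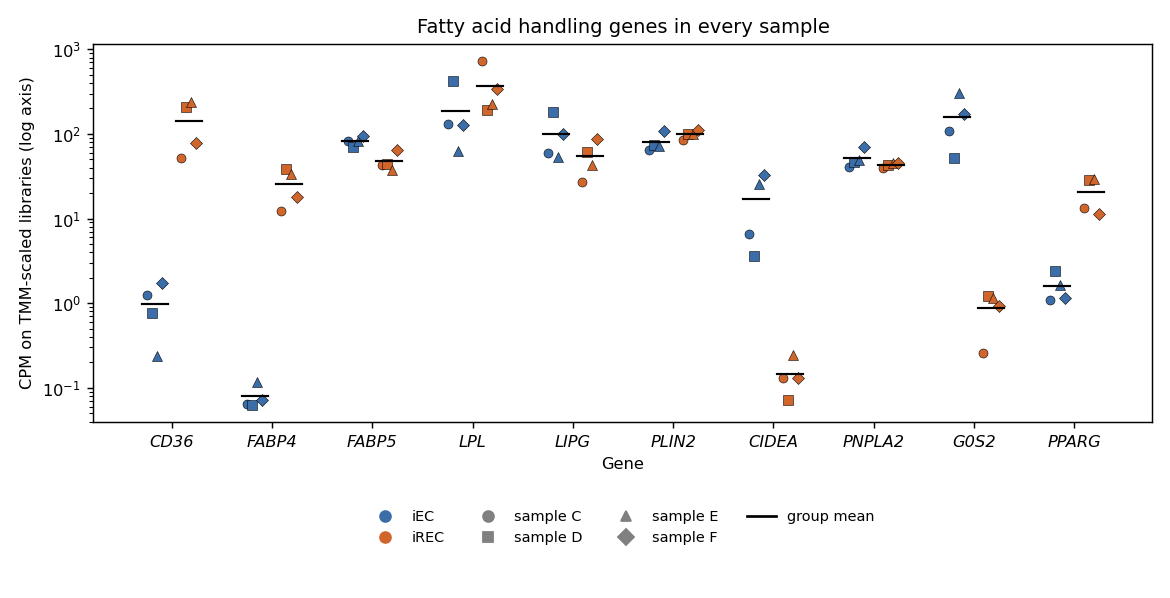
CPM of each of the 10 genes in every sample, on a log axis, with iEC in blue, iREC in orange, a symbol for each sample letter and a bar at the group mean. CD36, FABP4 and PPARG lie higher in all 4 iREC samples, CIDEA and G0S2 lie far lower and FABP5 somewhat lower, and the groups of the other genes overlap.

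Of the uptake genes, CD36 differed most. CD36 encodes a membrane glycoprotein that takes up long-chain fatty acids (chromosome 7, 80369575 to 80679277, plus strand, GRCh38). Its level was 1.24, 0.758, 0.237 and 1.72 CPM in iEC C, D, E and F, and 51.9, 207, 236 and 78.3 CPM in the iREC samples in the same order. Every iREC sample was far above every iEC sample, and iREC D and E were well above iREC C and F. The mean went from 0.987 ± 0.635 CPM (SD, n = 4) to 143 ± 91.7 CPM (SD, n = 4), or 7.20 ± 0.71 (SE) in log2 units. In relative terms the spread was alike in both groups, with coefficients of variation of 64.4% and 64.0%.

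CD36 is also a gene of macrophages and platelets. Of 8 macrophage and monocyte markers, 2 had enough counts for the test, and both were called higher in iREC by edgeR. The summed level of the 8 was 1.48 to 21.0 CPM in iEC and 205 to 680 CPM in iREC. Nearly all of that was MRC1, a mannose receptor that some endothelium also carries, at 0.237 to 20.7 CPM in iEC and 202 to 677 CPM in iREC. CD14, CD68, SPI1 and LYZ had at most 3 counts in every sample, and PTPRC was at 0 counts in iEC and at 0.794 to 2.75 CPM in iREC. The 4 listed megakaryocyte and platelet markers summed to 2.51 to 5.27 CPM in iEC and 2.69 to 6.60 CPM in iREC.

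LPL, lipoprotein lipase itself (chromosome 8, 19901717 to 19967259, plus strand), was strongly expressed in both groups and very uneven among samples. It stood at 132, 423, 63.3 and 129 CPM in iEC C, D, E and F. In iREC C, D, E and F it stood at 725, 193, 229 and 344 CPM. The groups overlapped through the single sample iEC D, since the other 3 iEC samples lay below all 4 iREC samples. Means were 187 ± 161 CPM (SD, n = 4) in iEC and 373 ± 243 CPM (SD, n = 4) in iREC, with a log2 fold change of 0.996 ± 0.60 (SE). With a sample left out, the log2 fold change ran from 0.45, without iREC C, to 1.77, without iEC D.

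LIPG encodes endothelial lipase, a phospholipase of the same family that acts mainly on high-density lipoprotein (chromosome 18, 49560699 to 49599182, plus strand). Its level was 58.8, 183, 53.9 and 101 CPM in iEC C, D, E and F, and 27.0, 61.4, 43.4 and 86.7 CPM in iREC. The groups overlapped, although the lowest sample of all was iREC C and the highest iEC D. The log2 fold change was -0.86 ± 0.45 (SE), from a mean of 99.1 ± 59.8 to 54.6 ± 25.6 CPM (SD, n = 4 each). Within each sample the ratio of LPL to LIPG, on the length-corrected FPKM scale, was 6.70, 6.92, 3.52 and 3.84 in iEC C, D, E and F. In iREC it was 80.4, 9.41, 15.8 and 11.9, so every iREC sample had relatively more LPL than any iEC sample, and iREC C stood far above the other iREC samples.

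The cytosolic carriers FABP4 and FABP5 differed in opposite directions. FABP4, the binding protein of fat cells and of capillary endothelium (chromosome 8, 81478419 to 81483263, minus strand), had 1, 1, 2 and 1 counts in iEC C, D, E and F, below the floor in each. In the iREC samples it had 186, 537, 548 and 278 counts, or 12.2, 38.3, 33.5 and 18.2 CPM. All iREC samples lay far above all iEC samples, with D and E again higher than C and F. The fitted log2 fold change was 8.17 ± 0.54 (SE), and it rests on 5 counts in iEC. The pooled counts, 1549 against 5, gave a ratio of 316 with a 95% counting interval of 135 to 973.

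FABP5, the epidermal type that many cells use (chromosome 8, 81280363 to 81284777, plus strand), went the other way and much less far. Its level was 82.0, 69.97, 82.6 and 95.4 CPM in iEC C, D, E and F, and 43.4, 44.3, 37.3 and 65.0 CPM in iREC. The groups lay close together without overlapping: the highest iREC sample, F, was just below the lowest iEC sample, D. The means were 82.5 ± 10.4 and 47.5 ± 12.1 CPM (SD, n = 4 each), or -0.80 ± 0.18 (SE) in log2 units. FABP5 shares its sequence with processed pseudogenes, of which 4 are listed, so its count is uncertain. FABP5P7, which holds most of the pseudogene counts, took 15.2% to 16.5% of the pair's summed counts over the iEC samples and 13.0% to 18.2% over the iREC samples. The log2 ratio of the group means of that sum was -0.80, the same as for FABP5 alone.

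Per unit of length, FABP4 went from a trace to a large part of this carrier pair. Its share of the summed FABP4 and FABP5 FPKM was 0.118%, 0.134%, 0.213% and 0.111% in iEC C, D, E and F. In iREC it was 29.4%, 56.3%, 57.2% and 29.4%. On this scale FABP4 thus exceeded FABP5 in iREC D and E and stayed below it in iREC C and F. That order depends on the length correction. In raw counts FABP4 was below FABP5 in every iREC sample, at 537 against 621 in D and 548 against 610 in E. The mean share was 0.144 ± 0.0468% in iEC and 43.1 ± 15.8% in iREC (SD, n = 4 each).

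Adipocyte markers were low in both groups, and their sum was higher in every iREC sample than in any iEC sample. Of 10 such markers 7 are listed, and these summed to 3.45 to 6.19 CPM in iEC and 7.45 to 8.92 CPM in iREC. Of the 4 tested, 2 were called higher. ADIPOQ (adiponectin) and CIDEC had at most 3 counts in every sample. PLIN1, the perilipin of fat cells, had at most 6 counts. The listed markers include DIO2, a deiodinase of brown fat that other cells also express, at 0 to 0.0650 CPM in iEC and 1.10 to 2.68 CPM in iREC. PRDM16, also listed, was at 0 to 0.632 CPM in iEC and 0.262 to 2.75 CPM in iREC.

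On the lipid droplet itself the coat protein and the fusion protein behaved differently. PLIN2, the perilipin found on droplets of most cells (chromosome 9, 19108375 to 19149290, minus strand), was at 64.5, 74.1, 71.3 and 109.8 CPM in iEC C, D, E and F. In iREC it was at 85.4, 100.4, 100.9 and 110.1 CPM. The groups overlapped because iEC F lay among the highest iREC samples. The log2 fold change was 0.31 ± 0.18 (SE), from 79.9 ± 20.3 to 99.2 ± 10.2 CPM (SD, n = 4 each). With a sample left out, the log2 fold change ran from 0.21, without iEC C, to 0.50, without iEC F.

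CIDEA, which promotes the fusion of droplets and is best known from brown fat (chromosome 18, 12254319 to 12277595, plus strand), was at 6.57, 3.60, 25.5 and 32.9 CPM in iEC C, D, E and F. The iREC samples had 2, 1, 4 and 2 counts, below the floor of 3 in C, D and F and just above it in E. All iEC samples were clearly above all iREC samples, although iEC E and F were several times higher than iEC C and D. The fitted log2 fold change was -6.79 ± 0.88 (SE). The pooled counts, 1048 from iEC against 9 from iREC, gave a ratio of 114 with a 95% counting interval of 60.0 to 251. On the FPKM scale the ratio of CIDEA to PLIN2 was 0.133 to 0.981 in iEC and 0.00195 to 0.00665 in iREC.

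PNPLA2 and G0S2 form the lipase and inhibitor pair of the droplet. PNPLA2 encodes adipose triglyceride lipase, which removes the first fatty acid from triglyceride (chromosome 11, 818902 to 825573, plus strand). It was at 40.7, 46.6, 49.7 and 69.6 CPM in iEC C, D, E and F, and 39.5, 43.3, 45.0 and 45.0 CPM in iREC. The groups overlapped, and the iREC samples lay close together, with a coefficient of variation of 6.06% against 24.3% in iEC. Its log2 fold change was -0.26 ± 0.17 (SE), from 51.7 ± 12.5 to 43.2 ± 2.62 CPM (SD, n = 4 each).

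G0S2, a small protein that binds that lipase and blocks it (chromosome 1, 209675420 to 209676388, plus strand), was far lower in iREC. It stood at 108, 51.5, 307 and 172 CPM in iEC C, D, E and F, and at 0.262, 1.21, 1.16 and 0.917 CPM in iREC. No iREC sample came near the lowest iEC sample, D, and iREC C had only 4 counts. The mean went from 160 ± 110 to 0.888 ± 0.437 CPM (SD, n = 4 each), or -7.48 ± 0.68 (SE) in log2 units. The FPKM ratio of G0S2 to PNPLA2 was 11.7, 4.90, 27.4 and 11.0 in iEC C, D, E and F. It was 0.0294, 0.124, 0.114 and 0.0904 in iREC. The inhibitor transcript thus exceeded the lipase transcript in every iEC sample and lay below it in every iREC sample, with means of 13.8 ± 9.60 and 0.0896 ± 0.0426 (SD, n = 4 each).

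**Figure D2:**
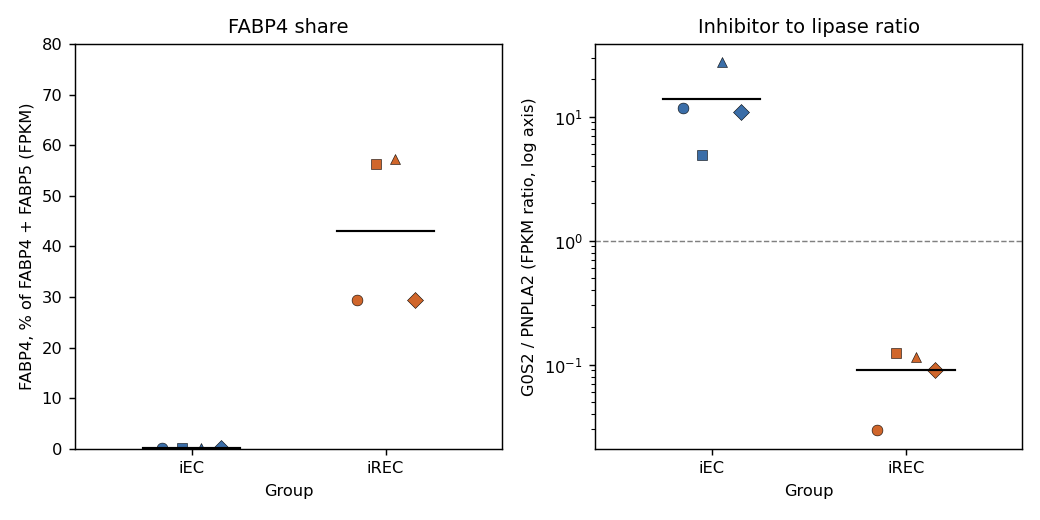
Ratios within each sample from deposited FPKM values, with FABP4 as a percentage of FABP4 plus FABP5 on the left and G0S2 over PNPLA2 on a log axis on the right (dashed line at 1). Blue marks iEC and orange iREC, circles, squares, triangles and diamonds mark samples C, D, E and F, and bars mark the means of 0.144% and 43.1% on the left and 13.8 and 0.0896 on the right.

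G0S2 and CIDEA were the members that went from clear expression in iEC to near the floor in iREC, so the stretch before their start sites is shown, from the RefSeq promoter table on GRCh38.p14. RefSeq windows matched 7 of the 10 members, 17 windows in all. The G0S2 stretch is chr1:209675162-209675411 and the CIDEA stretch chr18:12254111-12254318, both on the plus strand and read 5′ to 3′. Capitals mark GC boxes, GGGCGG, a motif that factors of the SP family bind.
G0S2: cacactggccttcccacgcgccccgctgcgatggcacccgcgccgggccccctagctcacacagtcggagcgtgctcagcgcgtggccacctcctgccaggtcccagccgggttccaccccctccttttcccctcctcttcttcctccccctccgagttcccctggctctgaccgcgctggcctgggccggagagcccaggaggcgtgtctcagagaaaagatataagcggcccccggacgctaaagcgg
CIDEA: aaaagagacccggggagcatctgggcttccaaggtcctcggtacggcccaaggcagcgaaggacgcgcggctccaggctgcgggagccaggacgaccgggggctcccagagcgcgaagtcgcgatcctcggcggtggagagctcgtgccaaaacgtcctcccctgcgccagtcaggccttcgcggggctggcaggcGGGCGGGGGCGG
Both are rich in G and C, at 69.2% over the 250 bases before the G0S2 start and 70.4% before the CIDEA start. The CIDEA stretch holds adjoining GC boxes, 54 and 48 bases before the RefSeq start, and the G0S2 window holds none. Over all 35116 RefSeq windows of 250 bases, searched on both strands, 42.64% hold a GC box. The search also covered the exact letters of the TATA box, TATAAA, which 10.72% of all windows hold, and neither of these windows held them. Near matches were not counted, such as TATAAG, which the G0S2 stretch holds. Neither window held a nuclear receptor half-site, given with PPARG. Such matches describe the letters and show no binding.

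PPARG, the nuclear receptor named above (chromosome 3, 12287368 to 12434356, plus strand), was low in iEC at 1.11, 2.40, 1.66 and 1.15 CPM in samples C, D, E and F. In iREC it was at 13.3, 28.5, 29.6 and 11.3 CPM. All iREC samples exceeded all iEC samples, and iREC D and E were again above iREC C and F, as for CD36 and FABP4. The mean went from 1.58 ± 0.604 to 20.7 ± 9.71 CPM (SD, n = 4 each), or 3.70 ± 0.43 (SE) in log2 units. RefSeq gives PPARG 6 start sites. The counts are per gene and do not say which start was used. The window shown is that of the first start site (chr3:12287118-12287367, plus strand, 5′ to 3′), which is also the gene start given above. It holds 2 copies of the nuclear receptor half-site, AGGTCA. Capitals mark these copies, 217 and 184 bases before the start.
PPARG: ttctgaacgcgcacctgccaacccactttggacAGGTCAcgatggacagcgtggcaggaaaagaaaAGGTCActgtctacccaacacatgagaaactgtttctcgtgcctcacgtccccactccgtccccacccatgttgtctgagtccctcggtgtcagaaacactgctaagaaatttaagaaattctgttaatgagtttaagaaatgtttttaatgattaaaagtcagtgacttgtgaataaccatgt
This half-site was present in 4 of the 17 member windows and in 12.08% of all windows. Of those 4, 3 are windows of PPARG, 2 of them overlapping, and 1 is that of PNPLA2. The closer pair that PPARG with its RXR partner is known to bind, AGGTCA repeated after 1 base, was in no member window and in 0.0171% of all windows (6 of 35116). A window without it says only that these letters are not there.

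**Figure D3:**
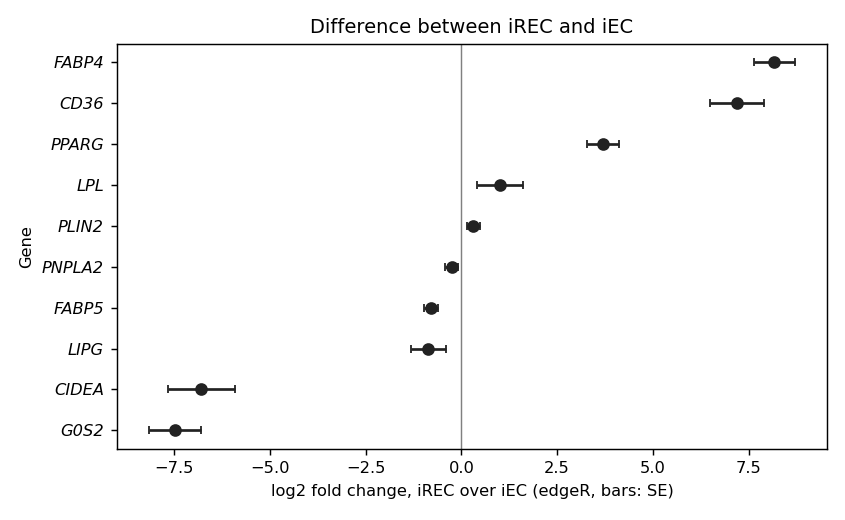
Log2 fold change of each gene, iREC over iEC, from the edgeR fit, with bars for the standard error. The values run from -7.48 for G0S2 to 8.17 for FABP4, with PLIN2 at 0.31 and PNPLA2 at -0.26 nearest to 0.

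Without iREC F the direction of every member was as before. The log2 fold change was then 8.30 for FABP4, 7.40 for CD36, 3.90 for PPARG, 1.03 for LPL and 0.26 for PLIN2. It was -0.28 for PNPLA2, -0.99 for FABP5, -1.18 for LIPG, -6.74 for CIDEA and -7.50 for G0S2. In its own group iREC F was highest for FABP5, PLIN2 and LIPG, lowest for PPARG and between the others for CD36, FABP4, LPL, G0S2, CIDEA and PNPLA2. The part of the marker levels of iREC F, or of the mural markers, in these results was not tested.

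The order of the members by length-corrected level also changed between the groups. In iEC the mean FPKM was 183 ± 126 for G0S2, 42.1 ± 35.8 for LPL and 39.5 ± 5.80 for FABP5 (SD, n = 4 each). PLIN2 (15.7 ± 4.39), PNPLA2 (13.4 ± 3.60), CIDEA (9.29 ± 7.89) and LIPG (7.50 ± 4.47) followed. PPARG (0.344 ± 0.128), CD36 (0.0907 ± 0.0599) and FABP4 (0.0566 ± 0.0185) came last. Between neighbours in this order, samples did not overlap from FABP5 to PLIN2, from LIPG to PPARG and from PPARG to CD36, and overlapped elsewhere.

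In iREC the order was led by LPL at 83.6 ± 54.6 FPKM, FABP5 at 22.5 ± 5.92 and PLIN2 at 19.2 ± 2.05 (SD, n = 4 each). FABP4 (17.95 ± 8.61), CD36 (12.9 ± 8.21) and PNPLA2 (11.05 ± 0.686) lay in the middle. PPARG (4.47 ± 2.08), LIPG (4.10 ± 1.95), G0S2 (1.01 ± 0.493) and CIDEA (0.0766 ± 0.0380) were the lowest. Neighbours did not overlap from LPL to FABP5, from PNPLA2 to PPARG, from LIPG to G0S2 and from G0S2 to CIDEA. G0S2, first of the 10 in iEC, was the last but one in iREC, and FABP4, last in iEC, was placed after PLIN2.

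Other genes of these pathways were taken from 10 lists written by textbook role, 167 genes without the members, of which 151 are listed in the table and 124 were tested. By edgeR's quasi-likelihood test with Benjamini-Hochberg adjustment over all genes, 22 were higher and 28 lower in iREC, and 74 were not called. The called share was 40.3%, beside 25.0% of all tested genes, and the median log2 fold change was -0.10 beside 0.02. The lists were written with earlier results of these data known, so these shares are a description only. Without iREC F, 27 were higher and 27 lower.

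**Figure D4:**
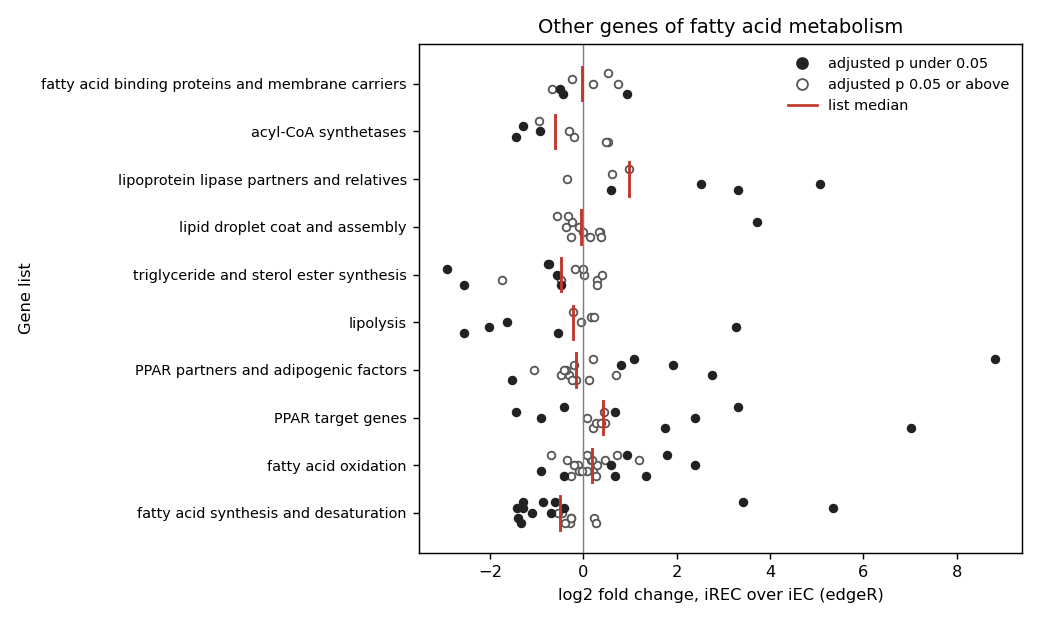
Log2 fold change, iREC over iEC, of each tested gene of the 10 pathway lists, filled where edgeR's adjusted p was under 0.05 and open where it was not, with a red bar at the list median. The list medians run from -0.61 for the acyl-CoA synthetases to 0.98 for the lipoprotein lipase partners, and a gene on more than 1 list is drawn on each.

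The called partners of lipoprotein lipase were all higher. Of 7 tested, 4 were called higher, with a list median of 0.98, and none lower by edgeR, DESeq2 or limma-voom (1 at an unadjusted p under 0.05 by edgeR, and 1 called by it without iREC C). The called share was 57.1%, beside 25.0% of all tested genes. GPIHBP1, the endothelial anchor of the lipase, rose from 0 to 0.758 CPM over the iEC samples to 3.14 to 14.8 CPM over the iREC samples. Its log2 fold change was 5.07 ± 0.94 (SE, adjusted p = 0.00421 by edgeR) and was 6.85 without iEC D, the iEC sample in which it was highest. ANGPTL4, a secreted inhibitor of the lipase and a PPAR target, rose from 2.13 ± 1.44 to 21.2 ± 5.48 CPM (SD, n = 4 each), or 3.32 ± 0.46 in log2 units (SE, adjusted p = 0.00100 by edgeR). VLDLR, a receptor for triglyceride-rich particles, rose by 2.53 ± 0.19 (SE) and SEL1L, which helps the lipase leave the endoplasmic reticulum, by 0.59 ± 0.11 (SE). So LPL, not past the threshold itself, stood beside an anchor and an inhibitor that were both higher.

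Of 8 tested binding proteins and membrane carriers other than the members, 1 was called higher and 2 lower. This was 37.5%, beside 25.0% of all tested genes, and the list median was -0.02. SLC27A3, a fatty acid transport protein, went from 52.2 ± 12.4 to 101 ± 38.0 CPM (SD, n = 4 each; edgeR adjusted p = 0.0426). SLC27A4, of the same family, fell from 49.7 ± 8.43 to 35.0 ± 3.80 CPM (SD, n = 4 each; edgeR adjusted p = 0.0367). DBI, which carries acyl-CoA, fell from 163 ± 14.1 to 121 ± 17.0 CPM (SD, n = 4 each; edgeR adjusted p = 0.0365). All 3 calls depended on single samples. That of SLC27A3 was lost without iEC C, E or F or iREC C, D or E, that of SLC27A4 without iEC E or F or iREC C, D or E, and that of DBI without iEC C, D or F or iREC D, E or F. With a sample left out, the list had 0 to 2 genes called higher and 0 or 1 called lower. SLC27A3 also shares 455 exon bases with INTS3 on the same strand, so its count is uncertain. SCARB1, a scavenger receptor for high-density lipoprotein, had a log2 fold change of -0.25 (edgeR adjusted p = 0.311).

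Acyl-CoA synthetases activate fatty acids for all later use. Of 8 tested, 3 were called lower and none higher by edgeR (none at an unadjusted p under 0.05, and none by DESeq2 or limma-voom), with a list median of -0.61. By edgeR 37.5% of this list was called, beside 25.0% of all tested genes. Without iEC F, 1 synthetase was called higher. ACSL1 fell from 19.0 ± 3.04 to 7.00 ± 3.11 CPM and ACSL4 from 159 ± 30.5 to 65.0 ± 24.8 CPM (SD, n = 4 each), with log2 fold changes of -1.44 and -1.29 (edgeR adjusted p = 0.0108 and 0.00609). ACSL3 was the third, at -0.92 ± 0.09 (SE).

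In triglyceride and sterol ester synthesis the called genes were again all lower. Of 14 tested genes, 6 were called lower and none higher by edgeR (none at an unadjusted p under 0.05, and none by DESeq2 or limma-voom), and the list median was -0.47. The called share by edgeR was 42.9%, beside 25.0% of all tested genes. GPAT3, an acyltransferase of the first step, fell from 26.2 ± 8.75 to 3.45 ± 1.17 CPM (SD, n = 4 each), or -2.92 ± 0.34 in log2 units (SE, adjusted p = 0.000368 by edgeR). LPIN1, a phosphatidate phosphatase that is also a transcriptional co-regulator, fell from 91.7 ± 26.9 to 15.7 ± 1.45 CPM (SD, n = 4 each), or -2.55 ± 0.21 in log2 units (SE, adjusted p = 7.1e-05 by edgeR). GPAT4, AGPAT1, AGPAT5 and LPIN3 were the other 4, AGPAT1 only just (edgeR adjusted p = 0.0499). With a sample left out, 4 to 6 genes of the list were called lower, and limma-voom called 5. The enzymes of the last step were not called: DGAT1 had a log2 fold change of 0.31 ± 0.15 (SE, adjusted p = 0.167 by edgeR) and DGAT2 one of -1.74 ± 0.62 (SE, adjusted p = 0.0694 by edgeR).

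Other droplet coat and assembly genes showed little. Of 12 tested, 1 was called higher and none lower by edgeR (3 at an unadjusted p under 0.05, 1 called by DESeq2 and none by limma-voom), a called share of 8.33% beside 25.0% of all genes. The called gene was METTL7A, a methyltransferase-like protein found on droplets, which went from 1.19 ± 1.17 to 15.8 ± 5.52 CPM (SD, n = 4 each; log2 fold change 3.72 ± 0.63 (SE), 4.66 without iEC D, edgeR adjusted p = 0.00261). Without iEC F, 2 were called higher and 1 lower, and without iREC F 1 was called lower. PLIN3, a perilipin of small droplets, had a log2 fold change of -0.56 ± 0.22 (SE, adjusted p = 0.0903 by edgeR), and HILPDA, another inhibitor of the PNPLA2 lipase, one of -0.33 ± 0.23 (SE, adjusted p = 0.331 by edgeR). PLIN1 and CIDEC, the droplet proteins of fat cells, were below the filter.

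Lipolysis genes differed in both directions. Of 9 tested, 1 was called higher and 4 lower, a called share of 55.6% beside 25.0%, and the list median was -0.21. ABHD6, a monoacylglycerol hydrolase, rose from 12.5 ± 4.09 to 121 ± 52.4 CPM (SD, n = 4 each), or 3.27 ± 0.37 in log2 units (SE, adjusted p = 0.000335 by edgeR). MGLL, the main monoacylglycerol lipase, fell from 147 ± 54.8 to 25.1 ± 19.5 CPM (SD, n = 4 each), or -2.55 ± 0.67 in log2 units (SE, adjusted p = 0.0226 by edgeR). The enzymes that split the same substrate thus went in opposite directions. NCEH1, a cholesterol ester hydrolase, fell from 135 ± 39.2 to 33.4 ± 4.22 CPM (SD, n = 4 each), or -2.01 ± 0.21 in log2 units (SE, adjusted p = 0.00022 by edgeR). ABHD5, the activator of the PNPLA2 lipase, fell from 39.2 ± 5.54 to 26.8 ± 3.05 CPM (SD, n = 4 each), or -0.55 ± 0.14 in log2 units (SE, adjusted p = 0.0216 by edgeR). It shares 170 exon bases with ANO10 on the other strand, and its call was lost without iEC E or iREC D. The call of MGLL was lost without iEC E or iREC E, and without iEC E the list had 2 lower genes. LIPE, the hormone-sensitive lipase, was at 3.62 ± 0.917 and 3.12 ± 1.25 CPM (SD, n = 4 each; edgeR adjusted p = 0.711). The inhibitor, activator and lipase of the first lipolytic step can be set side by side: G0S2 at -7.48, ABHD5 at -0.55 and PNPLA2 at -0.26 on the log2 scale.

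Among 17 tested PPAR partners and adipogenic factors, 5 were called higher and 1 lower, with a list median of -0.16. This was a called share of 35.3%, beside 25.0% of all tested genes. MEOX2, a homeobox factor of the endothelium of heart and muscle that raises fatty acid uptake there, was at 0 to 0.316 CPM in iEC and 21.1 to 99.5 CPM in iREC. Its log2 fold change was 8.82 ± 0.76 (SE, adjusted p = 8.9e-05 by edgeR) and 9.72 without iEC D. TCF15, its known partner in that role, fell from 6.13 ± 1.04 to 2.11 ± 0.269 CPM (SD, n = 4 each), or -1.53 ± 0.24 in log2 units (SE, adjusted p = 0.00183 by edgeR). PPARA, the receptor that drives fatty acid oxidation, rose by 1.10 ± 0.22 (SE, adjusted p = 0.00663 by edgeR), and NR1H3, a sterol receptor, by 1.92 ± 0.35 (SE, adjusted p = 0.00377 by edgeR). RXRA, the partner of all PPAR receptors, rose by 0.81 ± 0.22 (SE, adjusted p = 0.0261 by edgeR), a call lost without iEC C, E or F or iREC D or E. CEBPD, an early adipogenic factor, rose by 2.76 ± 0.64 (SE, adjusted p = 0.0130 by edgeR) and by 1.88 without iREC F. PPARD had a log2 fold change of -0.25 ± 0.18 (SE, adjusted p = 0.356 by edgeR). Without iEC E or iEC F, 2 genes of this list were called lower.

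PPAR target genes other than the members were called in both directions. Of 14 tested, 5 were called higher and 3 lower, a called share of 57.1% beside 25.0%, and the list median was 0.42. PDK4, a kinase that spares glucose when fatty acids are burned, was at 0 to 0.948 CPM in iEC and 18.4 to 73.1 CPM in iREC. Its log2 fold change was 7.01 ± 0.87 (SE, adjusted p = 0.000516 by edgeR) and 8.33 without iEC D. ACSL1, described with the synthetases, was among the lower ones. HADHA, another of them and a subunit of the mitochondrial trifunctional protein, fell by 0.42 ± 0.13 in log2 units (SE, adjusted p = 0.0423 by edgeR), a call lost when any single sample was left out. With any one of iEC C, iEC E, iREC C, iREC D and iREC E left out, 3 targets were called higher and 2 lower.

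Fatty acid oxidation held 6 called higher and 2 called lower of 25 tested, a called share of 32.0% beside 25.0%, with a list median of 0.19. CPT1A, which admits fatty acids to mitochondria and limits the rate of their oxidation, rose from 31.3 ± 20.3 to 163 ± 27.7 CPM (SD, n = 4 each), or 2.38 ± 0.42 in log2 units (SE, adjusted p = 0.00339 by edgeR). Every iREC sample, at 124.5 CPM or more, lay above the highest iEC sample at 58.5 CPM. ACADS, a dehydrogenase for short chains, rose from 3.76 ± 0.827 to 13.0 ± 1.74 CPM (SD, n = 4 each), or 1.79 ± 0.22 in log2 units (SE, adjusted p = 0.000493 by edgeR). CPT1C, CPT2, EHHADH and HSD17B4 were the others that rose. Without iEC E or without iREC D, 3 were called higher, and 1 lower gene was left without iEC E, iEC F or any single iREC sample.

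Fatty acid synthesis and desaturation was the list with the most lower genes. Of 20 tested, 10 were called lower and 2 higher, and the list median was -0.50. The called share was 60.0%, beside 25.0% of all tested genes, of which 11.7% were called lower. SCD, the desaturase that makes oleate, fell from 1143 ± 134 to 434 ± 61.8 CPM (SD, n = 4 each), or -1.40 ± 0.15 in log2 units (SE, adjusted p = 0.000235 by edgeR). INSIG1, which holds back the sterol-regulated factors SREBF1 and SREBF2 and is itself their target, fell from 98.6 ± 9.72 to 36.7 ± 5.26 CPM (SD, n = 4 each), or -1.43 ± 0.14 in log2 units (SE, adjusted p = 0.00015 by edgeR). SREBF1 fell by 1.29 ± 0.14 (SE), FASN, the fatty acid synthase, by 1.11 ± 0.15 (SE) and the desaturase FADS2 by 1.34 ± 0.15 (SE). ACLY, ELOVL1, FADS1, SREBF2 and ME1 were the other genes called lower. ELOVL7, an elongase of long chains, rose from 0.570 ± 0.298 to 23.5 ± 6.67 CPM (SD, n = 4 each), or 5.35 ± 0.43 in log2 units (SE, adjusted p = 6.4e-05 by edgeR). ELOVL2, an elongase of polyunsaturated chains, overlapped between the groups, at 0.584 ± 0.553 and 6.27 ± 7.44 CPM (SD, n = 4 each; log2 fold change 3.42, edgeR adjusted p = 0.0329). Its log2 fold change was 2.16 and no longer called without iREC F (edgeR adjusted p = 0.0725), and its call was also lost without iEC C, D or E or iREC D, after which 1 gene of the list was called higher.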

How the data were processed

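Messenger RNA from 8 samples of the WTC-TJP1 line was selected with poly-T beads, and second strands were made with dUTP, per the labels' protocols. The submitters' processing notes name fastp, HISAT2 2.0.5 and the genome build hg38. The counting tool and its strand setting are not given in the sources used here. Per the file headers, the deposited table holds raw counts, a normalized signal and FPKM per gene and sample. That signal equals the count divided by 1 factor per sample, and the FPKM use a common library size of 15383181 and the deposited gene length. All 30386 genes matched GENCODE release 29 (GRCh38) in start and end. The deposited log2 fold changes and p-values, the authors' own, were not used.

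Counts were filtered by filterByExpr, scaled by TMM and fitted with edgeR 4.0.16 (quasi-likelihood F-test, group as the only term, R 4.3.3). P-values were adjusted by Benjamini-Hochberg over 15330 genes, and calls were made at an adjusted p under 0.05. CPM use TMM-scaled library sizes, with a prior count of 2 on the log2 scale. Standard errors were derived from each coefficient with its F statistic. The script was tested on simulated data. Counting intervals cover counting error only, and no 2 libraries held identical values.

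The members and gene lists were chosen with earlier results of these data known. From each list, up to 2 called genes per direction were named, by largest change where either group averaged 5 CPM or more, besides GPIHBP1, ANGPTL4, HILPDA, ABHD5, LIPE, MGLL, SCARB1, PLIN3, PLIN1, CIDEC, CPT1A, PDK4, PPARA, PPARD and RXRA. A gene that the rule names is not reported here. ACSL3, VLDLR, SEL1L, NR1H3, DGAT1, DGAT2, SREBF1, FASN and FADS2 lie outside that rule, and their values were named after they were seen. Alternatives were DESeq2 size factors, library size only, no filter, DESeq2 1.42.0, limma-voom (limma 3.58.1), a replicate block and each sample left out.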

Additional observations from a re-analysis of the deposited data

Results flagged for a closer look

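Of 36 groups of 4 samples examined for a single distant value, 4 were singled out because the gap to the nearest other sample took more of the group's range than Dixon's critical value at 95%, and chance alone gives about 1.8. FABP4 in iEC E stood at -2.01 log2 CPM, beside -2.37 to -2.31 in the other iEC samples, which is 2 counts against 1. The summed adipocyte markers of iREC D stood at 8.92 CPM, beside 7.45 to 7.66 CPM in the other iREC samples. The summed mural and mesenchymal markers stood at 354 CPM in iEC F, beside 78.7 to 115 CPM in the other iEC samples. They stood at 4193 CPM in iREC F, beside 548 to 1155 CPM in the other iREC samples. The sample iEC F was also the highest iEC sample for FABP5, CD36, CIDEA, PLIN2 and PNPLA2.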

How the results depend on the processing

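All genes called numbered 3829, and between 3334 and 4664 in the alternatives with all samples; leaving out each sample gave 2660 to 4214, the lowest without iREC D. Pathway genes called higher ranged from 15 to 27 and lower from 21 to 27 over the samples left out. The members kept direction and side of the threshold in 138 of 140 recomputations. The exceptions were LPL without iEC D and PLIN2 without iEC F, which passed it. In each, the sample left out was the one through which the groups overlapped, so nothing is read from it. Nothing is read from the count of 138 either, since the members were chosen on this contrast and refitted on these same samples. Of 462 recomputations for 33 named pathway genes, 414 were the same, 47 lost the call and 1 changed direction: LIPE, not called, had a log2 fold change of 0.030 without iREC C, and its range over the samples left out was -0.38 to 0.030. The replicate block gave 3334 called genes, and it ended the call of HADHA (adjusted p = 0.103). The labels do not say what the letters mark. Deviations of same-letter samples correlated at 0.168 for C, -0.08 for D, 0.03 for E and 0.25 for F, the last being the highest of all 16 pairs. The letters were not taken as pairs, since D and E did not exceed 0.1. Depth limits FABP4 in iEC and CIDEA in iREC, which had 1 to 4 counts per sample. Some named pathway genes were also near the floor in iEC, so the size of their log2 fold changes is uncertain. These were MEOX2 at 0 to 0.316 CPM, PDK4 at 0 to 0.948, GPIHBP1 at 0 to 0.758 and ELOVL7 at 0.178 to 0.822 CPM. ELOVL2, at 0.0650 to 1.36 CPM, and METTL7A, at 0.296 to 2.91 CPM, were near it in their lowest iEC sample.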
